A study of Mus musculus with 2 samples.

Results

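The mouse miR-15/16 family, with miR-195 and miR-497, was examined on 2 microRNA (miRNA) arrays, 1 of LKS cells and 1 of total bone marrow (total BM). LKS cells are marrow cells without lineage markers that carry Kit and Sca1, a fraction that holds haematopoietic stem and early progenitor cells, purified by magnetic column and then by fluorescent sorting. Total BM is unsorted marrow. Both RNAs came from C57BL/6J mice with no treatment or engineered allele named in the labels. The number of animals behind each RNA, their age and any pooling are not stated in the labels. The family was taken by name: 5 of the 566 mouse miRNAs on the array, namely mmu-miR-15a, mmu-miR-15b, mmu-miR-16, mmu-miR-195 and mmu-miR-497, written below without the species prefix. Each group had 1 array, so no p-value can be given, and every difference below is one between these 2 arrays.

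A mature miRNA guides Argonaute proteins to messenger RNAs, mostly through its seed (bases 2 to 8, counted from the 5′ end), and lowers their stability and translation. The miR-15/16 family is known to restrain the cell cycle and to favour cell death by acting on transcripts such as those of D-type cyclins and Bcl2. In humans, the locus of miR-15a and miR-16-1 is often deleted in chronic lymphocytic leukaemia. MiR-195 and miR-497 form a separate pair with the same seed, known among other roles for slowing cell division in the postnatal mouse heart.

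The mature sequences show what the 5 members share and where they part. They were taken from RefSeq (GRCm38.p6), are written 5′ to 3′, and have the seed in capitals:
miR-15a: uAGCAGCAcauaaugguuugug
miR-15b: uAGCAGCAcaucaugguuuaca
miR-16: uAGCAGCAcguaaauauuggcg
miR-195: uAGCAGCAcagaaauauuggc
miR-497: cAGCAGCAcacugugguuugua
All 5 array names were assigned by hand, from the name alone, to a RefSeq mature sequence. The array's miR-195 and miR-497 were taken as miR-195a-5p and miR-497a-5p of RefSeq, and its miR-15a, miR-15b and miR-16 as the 5p arms. All 5 carry the seed AGCAGCA, whose complement in a target transcript reads UGCUGCU. Past the seed, miR-15a and miR-15b were identical at 18 of 22 positions counted over the whole molecule, with the differences A12C, G20A, U21C and G22A (miR-15a base, position from the 5′ end, miR-15b base). MiR-16 and miR-195 were identical at 19 of 21 positions and differed by G10A and U11G. MiR-15b and miR-16 matched at 14 of 22 positions, and miR-16 and miR-497 at 11 of 22. Probe sequences were not used here, so whether a probe also binds a near-identical miRNA was not tested.

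The members come from 3 places in the mouse genome. The array files name no build, and the positions below are those of the RefSeq mature sequences on GRCm38.p6. MiR-15a lies at chr14:61632075-61632096 and 1 copy of miR-16 at chr14:61631936-61631957, both on the minus strand and within the long noncoding RNA gene Dleu2. MiR-15b lies at chr3:69009775-69009796 and the other copy of miR-16 at chr3:69009918-69009939, both on the plus strand and within the protein-coding gene Smc4, which encodes a condensin subunit. The 2 copies give the same mature sequence, so the miR-16 probe reads both loci together. MiR-497 (chr11:70234730-70234751) and miR-195 (chr11:70235062-70235082) neighbour each other on the plus strand.

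The total gene signals of the arrays are linear intensities after background subtraction, each deposited with its own error and a detection call. The LKS array was the dimmer of the pair: 98 mouse miRNAs were detected on it against 145 on total BM, and the summed intensity of detected miRNAs was 23256 on LKS and 52484 on total BM. Ratios were therefore taken after dividing each array by the 75th percentile of its signals for the 93 mouse miRNAs that both arrays detected (242 for LKS, 399 for total BM). This raised every log2 ratio of LKS over total BM by 0.72. The arrays carry no Kit or Sca1 measurement. Among miRNAs known from mature blood cells, the 3 erythroid ones (miR-451, miR-144 and miR-486) and lymphocyte-enriched miR-150 had a detection call on the total BM array alone. Neutrophil-rich miR-223 still read 822 ± 73.0 in LKS cells, against 7250 ± 641 in total BM. All 5 progenitor markers examined (miR-196b, miR-125b-5p, miR-126-3p, miR-130a and miR-99a) were brighter in LKS cells. These marker lists were chosen with earlier results of these data known, so they are no independent check of the sorting. The part of any difference in cell makeup in the family's values was not tested.

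The family divided into 3 bright members, detected on both arrays, and 2 faint ones, detected in total BM only. Each bright member had a lower signal in LKS cells than in total BM, by 1.45-fold to 2.21-fold after scaling. The order of the log2 ratios was miR-16, miR-15a and miR-15b from lowest to highest. With marrow RNA taken in bulk, fewer cells that hold a miRNA and less of it per cell cannot be told apart.

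**Figure D1:**
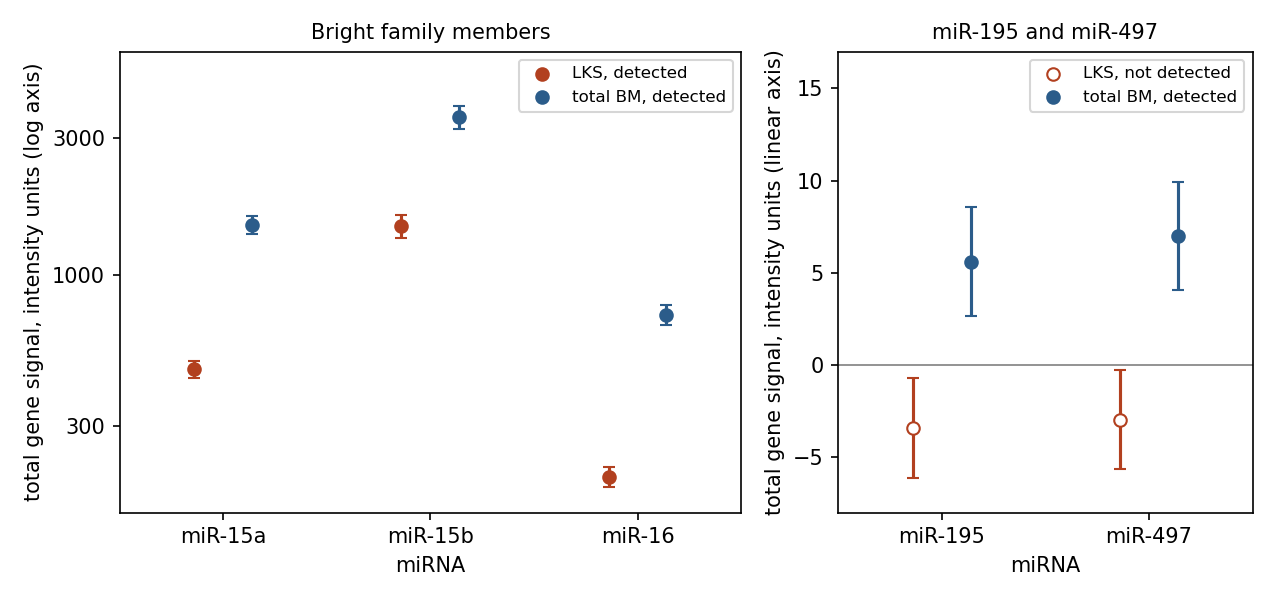
Total gene signal of each family member in LKS cells (red) and total BM (blue), 1 array each, in intensity units; bars are the error deposited with each signal, filled points were called detected and open points were not. The left axis is logarithmic and the right one linear: miR-15a, miR-15b and miR-16 lie lower in LKS cells with bars well apart, while miR-195 and miR-497 lie below 0 in LKS cells and a few units above 0 in total BM.

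MiR-16, the product of both the Dleu2 and the Smc4 locus, read 200.0 ± 16.5 intensity units in LKS cells, against 731 ± 58.1 in total BM. It was the 27th brightest of the 98 detected miRNAs in LKS cells and the 17th of 145 in total BM. Its scaled log2 ratio was -1.15 ± 0.17 (error propagated from the 2 signal errors), or 2.21-fold lower in LKS cells. It was the single member past a 2-fold threshold, but its 95% interval of technical error, -1.47 to -0.82, holds that threshold. The call was lost with scaling on the median of the shared miRNAs (-0.90), quantile normalization (-0.96) and the summed detected signal (-0.70), and the direction turned with the 75th percentile of all miRNAs (0.97). The signals as deposited were 3.66-fold lower in LKS cells.

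MiR-15a, encoded beside miR-16-1 in Dleu2, read 472 ± 33.6 in LKS cells, against 1503 ± 107 in total BM. Its scaled log2 ratio of -0.95 ± 0.15, or 1.93-fold lower in LKS cells, lay just inside the 2-fold threshold. The 95% interval of technical error, -1.23 to -0.66, holds that threshold, so miR-15a and miR-16 cannot be placed on different sides of it by these errors.

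MiR-15b, encoded beside miR-16-2 in Smc4, was the brightest member, with 1481 ± 135 in LKS cells, against 3559 ± 321 in total BM. It ranked 4th in LKS cells and 3rd in total BM. Probes differ in affinity, so these ranks do not order the miRNAs by abundance. Its scaled log2 ratio of -0.54 ± 0.18 (1.45-fold lower) was the smallest departure of the 3. The interval of -0.90 to -0.18 excludes both 0 and 2-fold, although it does not cover the choice of scaling.

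Expressed as a share of the summed signal of all detected mouse miRNAs, miR-15b made up 6.37% in LKS cells, against 6.78% in total BM. The share of miR-15a was 2.03% in LKS cells, against 2.86% in total BM, and that of miR-16 was 0.860% in LKS cells, against 1.39% in total BM. The 3 together held 9.26% of the intensity in LKS cells and 11.0% in total BM. By this measure miR-15b was nearly level between the arrays, and miR-16 and miR-15a were lower in LKS cells. Shares are of intensity, not of molecules.

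The 3 bright members were set against all miRNAs detected on both arrays. One of the 3 was at least 2-fold lower in LKS cells, where 18.3% of the 93 (17 miRNAs) were. All 3 had a log2 ratio below 0, as did 46.2% of the 93. Their median log2 ratio was -0.95, against a median of 0.07 over the 93 with the central 50% from -0.66 to 0.69. MiR-16 stood 16th from the lowest ratio, miR-15a 18th and miR-15b 29th of 93. These ranks cannot be moved by dividing an array by any constant. Other settings did move them, and over all settings the rank was 15 to 16 for miR-16, 16 to 18 for miR-15a and 21 to 29 for miR-15b. With signals as deposited, all 3 were at least 2-fold lower, but so were 38.7% of the 93.

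**Figure D2:**
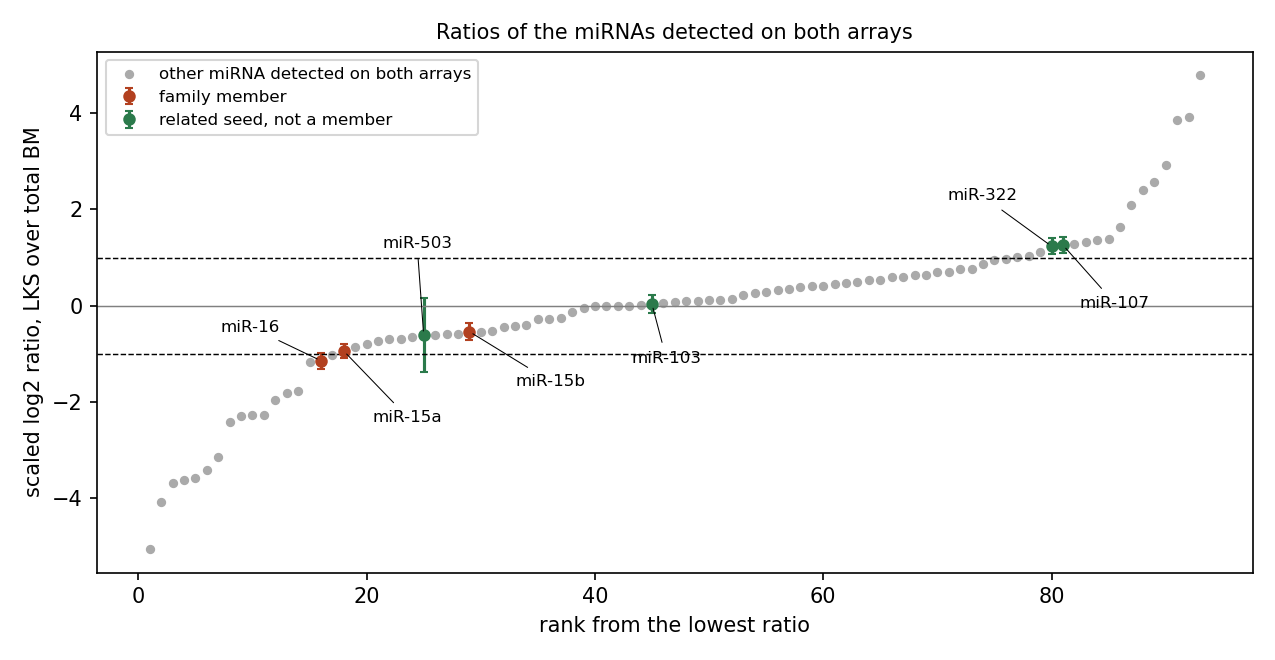
Scaled log2 ratio of LKS over total BM for the 93 miRNAs detected on both arrays, ordered from the lowest; bars are 1 propagated technical error, and dashed lines mark 2-fold. MiR-16, miR-15a and miR-15b (red) stand 16th, 18th and 29th, while miR-322 and miR-107 (green) stand 80th and 81st.

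The spread among the 3 was then compared with its technical error, since a difference between 2 ratios on the same arrays is free of any common scaling factor. MiR-16 minus miR-15b gave -0.61 ± 0.25, with a 95% interval of -1.09 to -0.12. MiR-15a minus miR-15b gave -0.40 ± 0.24 (-0.87 to 0.056). MiR-16 minus miR-15a gave -0.20 ± 0.22 (-0.63 to 0.23). Of the 3 pairs, only miR-16 and miR-15b differed by more than their 95% interval of technical error, and no allowance was made for having compared 3 pairs. The neighbours in the order, miR-16 with miR-15a and miR-15a with miR-15b, were not resolved by these errors, which does not show that they are equal.

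**Figure D3:**
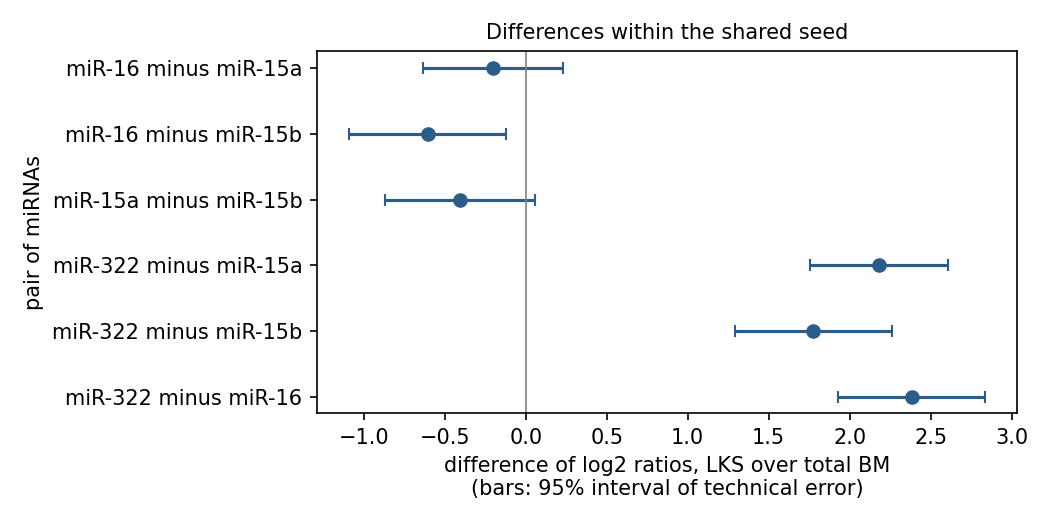
Differences between the log2 ratios (LKS over total BM) of pairs of miRNAs with the seed AGCAGCA; points are differences and bars the 95% interval of technical error. The interval of miR-16 minus miR-15b lies below 0, those of the other pairs among the 3 bright members cross 0, and the 3 differences from miR-322 lie between 1.78 and 2.38.

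MiR-195 and miR-497, the pair on chromosome 11, were close to background on both arrays. MiR-195 read -3.42 ± 2.70 in LKS cells, against 5.61 ± 2.94 in total BM. MiR-497 read -2.95 ± 2.70 in LKS cells, against 6.98 ± 2.94 in total BM. Both had a detection call on total BM alone, which was the case for 35.9% of the 145 miRNAs that array detected.

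The calls of this pair rest on little signal. In total BM, miR-195 stood at 1.91 times its error and miR-497 at 2.38 times. They ranked 143rd and 139th of the 145 detected miRNAs there, and the brightest undetected miRNA of that array, at 10.4, read higher than both. MiR-195 was 1 of 2 detected miRNAs of total BM with a signal under 2 errors. No fold is given for either. Scaled total BM over LKS, with the lowest detected LKS signal (2.91) in place of the undetected one, came to 1.17 for miR-195 and 1.45 for miR-497, and 1.93 and 2.40 without scaling. With the highest undetected LKS signal (6.39) in its place, a floor chosen after the values were seen, the scaled ratios were 0.532 and 0.662, under 1.

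Taken as plain differences, the LKS signal was below the total BM signal by 2.26 combined errors for miR-195 and 2.49 for miR-497. The undetected probes of the LKS array also sat lower, with a median of -5.55 against -3.02 in total BM. After each array was recentred on that median, the differences were 1.63 and 1.85 combined errors. A lower level of either miRNA in LKS cells was therefore not detectable at this signal. For comparison, 14 miRNAs were detected in total BM at a signal under 10, a limit chosen after the values were seen, and 9 of them, this pair included, were not detected in LKS cells.

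The other arms of the family's hairpins were near background. The array held miR-15a*, miR-15b* and miR-16*, the strands opposite the members, and none was detected on either array. The signal of miR-15b* was 0.486 ± 1.91 in LKS cells, against 2.83 ± 2.02 in total BM. Those of miR-15a* and miR-16* were below 0 on both arrays. No LKS minus total BM difference among the 3 exceeded 1.08 combined errors.

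Other miRNAs with the same or a shifted seed were examined to see whether the seed went with the direction. RefSeq lists 10 mature mouse names with the seed AGCAGCA, and 6 of these were matched on the array, the 5 members and miR-322. The sequences of miR-322 and of 3 relatives that differ at the seed are shown with bases 2 to 8 in capitals:
miR-322: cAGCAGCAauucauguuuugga
miR-503: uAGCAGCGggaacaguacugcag
miR-103: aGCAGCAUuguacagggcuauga
miR-107: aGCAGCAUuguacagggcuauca
MiR-322 has the family's seed exactly. MiR-503, which neighbours miR-322 on the X chromosome, differs from miR-15a in the seed by A8G. MiR-103 and miR-107 hold the family's letters shifted by 1 base, and differ from each other by G22C.

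MiR-322 went the other way from the bright members. It read 235 ± 18.7 in LKS cells, against 165 ± 13.1 in total BM, a scaled log2 ratio of 1.23 ± 0.16, or 2.35-fold higher in LKS cells, where 18.3% of the 93 were at least 2-fold higher. The 2-fold call was lost in the signals as deposited, where miR-322 was 1.43-fold higher (log2 ratio 0.51) and 7.53% of the 93 passed 2-fold, and in the authors' deposited value table (0.59). Its log2 ratio exceeded that of miR-16 by 2.38 ± 0.23, that of miR-15a by 2.18 ± 0.22 and that of miR-15b by 1.78 ± 0.25. These differences are 7.22 to 10.3 technical errors and do not depend on a common scaling factor. MiRNAs with 1 seed thus had ratios on both sides of the array median.

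MiR-503 was faint, with 5.94 ± 2.92 in LKS cells, against 15.0 ± 3.32 in total BM. Its log2 ratio of -0.61 ± 0.78 was not resolved from 0 or from the bright family members. MiR-107 read 276 ± 21.7 in LKS cells, against 190.4 ± 15.3 in total BM, 2.39-fold higher after scaling, while miR-103 read 118 ± 10.7 in LKS cells, against 190.3 ± 16.9 in total BM, with a log2 ratio of 0.03 ± 0.18. As deposited, without scaling, miR-107 was 1.45-fold higher and miR-103 was 1.62-fold lower in LKS cells. Both log2 ratios lay above those of miR-16, miR-15a and miR-15b, an order that dividing an array by a constant cannot change.

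The miRNAs closest in log2 ratio to the family median of -0.95 were miR-361, miR-350, miR-500, miR-212 and miR-301a, at distances of 0.082 to 0.23. The likeness rests on 1 ratio from 2 arrays. MiR-361 read 29.6 ± 3.60 in LKS cells, against 99.7 ± 8.22 in total BM, with a log2 ratio of -1.03 ± 0.21. All 5 had signals below 100 on both arrays, well under those of the 3 bright members.

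The direction of the bright members was examined under other ways of putting the arrays on 1 scale. Scaling on the 75th percentile of all mouse miRNAs, detected or not, turned all 3 to higher in LKS cells, with log2 ratios of 0.97 to 1.57, while it moved the median of the 93 to 2.19. That percentile was 1.12 on the LKS array, below the lowest detected signal there. The other settings kept all 3 below 0. In all settings, each of the 3 bright members lay below the median of the 93. The log2 difference from that median was -1.53 to -1.22 for miR-16, -1.30 to -1.02 for miR-15a and -0.86 to -0.62 for miR-15b. Settings that divide an array by a constant leave these differences unchanged by construction. Only quantile, lowess, the recentred background and the deposited values could have changed them.

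**Figure D4:**
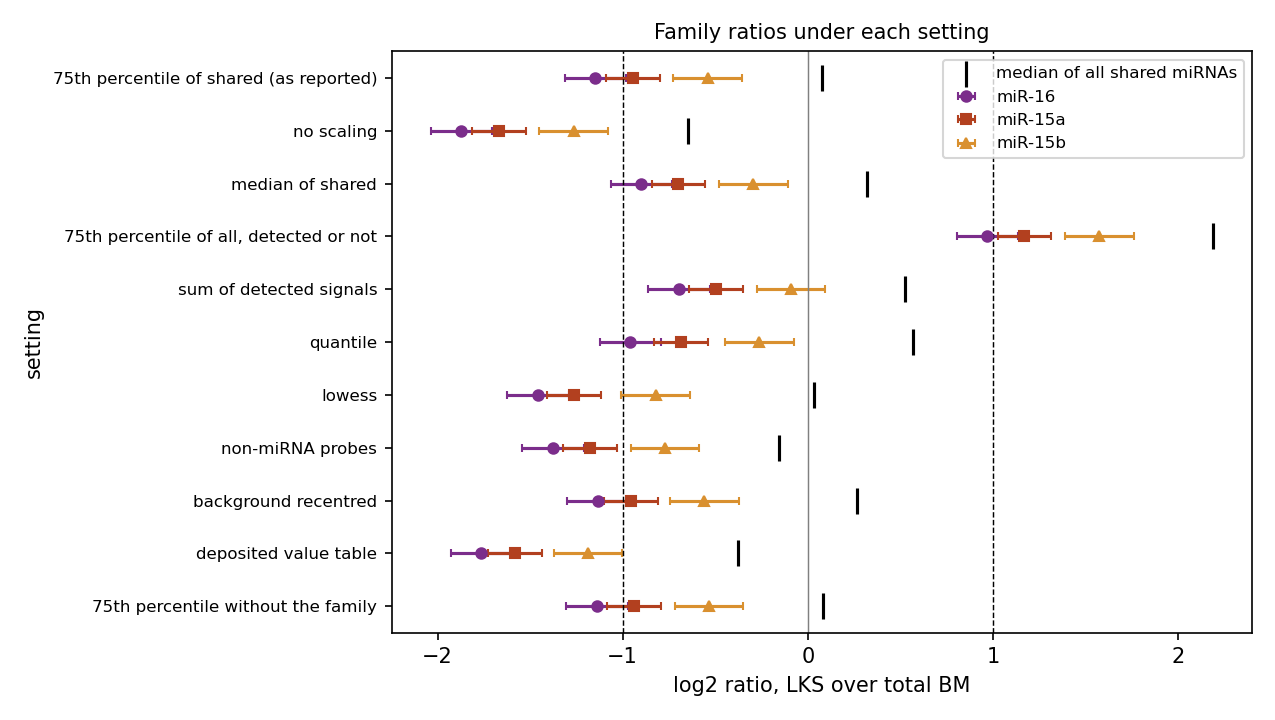
Log2 ratio of LKS over total BM for miR-16, miR-15a and miR-15b under each scaling, background or input setting; bars are 1 propagated technical error, black ticks the median of the 93 shared miRNAs, and dashed lines mark 2-fold. All 3 points move with the ticks and stay to the left of them, by construction wherever an array is divided by a constant. The points pass 0 only with the 75th percentile of all miRNAs.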

How the data were processed

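RNA extracted with the miRNeasy kit was labelled with Cy3 and hybridised to single-colour Agilent miRNA arrays, per the labels' protocols. The authors deposited linear intensity values (total gene signals, per the file headers), each with an intensity error and a detection call of 0 or 1. Signals below 0 show that background had been subtracted. Scanner, extraction software and detection rule were not given in the sources used here. A further deposited table holds values on a log2-like scale, which ranked all 576 miRNA names as the raw signals did (Spearman rho of 1 on each array). Its column medians were 1.00 for LKS and 1.46 for total BM, and how the arrays were centred is not stated.

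Each array was scaled to the 75th percentile of its signals for the 93 mouse miRNAs that both detected. Errors of log2 ratios were propagated from both deposited errors, taken as independent, and 95% intervals are 1.96 such errors. Whether a probe's error is partly shared between the arrays was not tested. They cover technical error on 1 array per group only. For a miRNA undetected in LKS cells, the total BM signal was set against a floor, the higher of its own signal plus 2 errors and the lowest detected signal. The miRNAs named were the 5 members, those with the same or a shifted seed, other arms, neighbours and the 5 closest ratios. Members, lists and rules were chosen with earlier results of these data known. Calculations used Python 3.11.15, numpy 2.4.6, pandas 2.3.3 and statsmodels 0.14.6, and were tested on simulated arrays. Those had a uniform dimming and few changed miRNAs, so they do not test the choice of scaling for the real arrays. Alternatives were other scalings, a recentred background, the deposited values, other fold thresholds, floors and detection rules.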

Additional observations from a re-analysis of the deposited data

How the results depend on the processing

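No paired analysis was possible because LKS and total BM have 1 array each, and for the same reason leaving out a replicate could not be tried. As reported, the log2 ratios were -0.95 for miR-15a, which was also the median, -0.54 for miR-15b and -1.15 for miR-16, with 1 member at least 2-fold lower. Without scaling, miR-15a and the median were -1.67, miR-15b was -1.26, miR-16 was -1.87, and 3 members were 2-fold lower. The authors' deposited values gave -1.58 for miR-15a and the median, -1.19 for miR-15b, -1.76 for miR-16 and 3 members. Scaling on the summed detected signal gave -0.49 for miR-15a and the median, -0.090 for miR-15b, -0.70 for miR-16 and 0 members. The 75th percentile of all miRNAs reversed them to 1.17 for miR-15a and the median, 1.57 for miR-15b and 0.97 for miR-16, with 0 members lower. Lowess gave -1.26 for miR-15a and 2 members. Counts were 2 with the non-miRNA probes, 0 with the median of shared miRNAs and 0 with quantile normalization. A threshold of 1.5-fold gave 2 and one of 4-fold 0. A recentred background, and leaving the family out of the scaling (chosen after seeing the data), kept 1. Settings that divide by a constant move all ratios alike by construction. For quantile, lowess and the deposited values the cause was not tested. The 3 differences between bright members kept their sign under the 4 alternatives tried, and each moved by less than its technical interval. Requiring 3 errors, or a signal above the highest undetected one, left 3 members detected in total BM in place of 5, without miR-195 and miR-497. The planned floor at the lowest detected signal equals the one used for this pair, so it tests nothing.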
